A study of Homo sapiens with 8 samples.

Results

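The messages of 8 components of the PI3K, AKT and mTOR pathway were followed in SKOV3, a human ovarian cancer cell line: the catalytic subunits PIK3CA and PIK3CB, the regulatory subunits PIK3R1 and PIK3R2, the kinases AKT1 and AKT2, and MTOR with its partner RPTOR. They were taken by gene name, and all 8 were found among the 22554 features of the deposited tables. Messenger RNA was sequenced from 4 samples of these cells given low-density lipoprotein (LDL) at 50 µg/mL for 48 h (LDL samples 1 to 4) and from 4 left in ordinary medium (control samples 1 to 4), all in McCoy's 5A medium with fetal bovine serum. Every sample comes from this one line, which is known to carry an amplified ERBB2 and an activating mutation in PIK3CA, so both groups share these features. Whether replicate samples were grown apart is not stated in the labels. The p-values here set the difference between the groups against how far samples of a group differ, and that spread can be technical.

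Class I PI3K is a pair of a catalytic and a regulatory subunit. When a receptor tyrosine kinase is activated, the regulatory subunit docks on it and the catalytic subunit phosphorylates a membrane lipid, which brings AKT to the membrane, where it is switched on. AKT signals to mTOR complex 1, in which RPTOR presents substrates to the MTOR kinase, and this complex promotes protein and lipid synthesis, including the activity of the sterol regulators of the SREBP family. The pathway works mainly by phosphorylation, and messenger RNA levels do not measure its activity.

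Total counts ran from 34682501 to 36780334 in LDL samples and from 37189698 to 44883561 in control samples, so every LDL library was shallower. KRT8, KRT18, PAX8 and ERBB2, which mark this line, were high in all libraries, CDKN2A, which it is known to have lost, was at 0, and so was the leukocyte marker PTPRC. Markers of other cell types were not all near 0: CD68 ran from 37.8 to 53.0 CPM (counts scaled to the library total) and COL3A1 from 13.9 to 27.8 CPM over the 8 libraries. On the first principal component of all genes LDL sample 4 stood apart, at -46.05 against -1.86 to 17.4 for the other libraries. Earlier results on these data had shown LDL sample 1 to follow the other LDL samples poorly. Values of the 8 genes that moved most are therefore also given without these libraries.

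The promoters of 3 of the genes are shown, that of AKT1 because it had the highest level of the 8, that of PIK3CA because it had the lowest, and that of PIK3R1 because it had the largest difference between the groups. Each runs from 250 bases before to 50 bases after the annotated start, 5′ to 3′ on the gene's strand, from RefSeq on GRCh38.p14, which held all 8 genes. Capitals mark matches, on either strand, to the FOXO core GTAAACA, the sterol response element TCACNCCAC, the E-box CACGTG, the GC box GGGCGG or the TATA box TATAAA. AKT1 lies on the minus strand (chr14:104795699-104795998), PIK3CA on the plus strand (chr3:179148107-179148406) and PIK3R1 on the plus strand (chr5:68215506-68215805).
AKT1: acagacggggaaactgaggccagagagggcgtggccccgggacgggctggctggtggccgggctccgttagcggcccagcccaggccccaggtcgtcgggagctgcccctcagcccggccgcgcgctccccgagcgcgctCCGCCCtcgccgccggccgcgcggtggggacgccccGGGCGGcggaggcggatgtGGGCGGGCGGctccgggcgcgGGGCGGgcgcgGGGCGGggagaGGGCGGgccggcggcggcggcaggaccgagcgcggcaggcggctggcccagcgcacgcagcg
PIK3CA: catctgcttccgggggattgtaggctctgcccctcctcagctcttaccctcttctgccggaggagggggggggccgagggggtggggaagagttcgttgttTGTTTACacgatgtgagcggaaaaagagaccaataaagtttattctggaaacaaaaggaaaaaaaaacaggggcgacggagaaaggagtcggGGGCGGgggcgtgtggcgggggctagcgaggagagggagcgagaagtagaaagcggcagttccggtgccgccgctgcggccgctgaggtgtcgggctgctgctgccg
PIK3R1: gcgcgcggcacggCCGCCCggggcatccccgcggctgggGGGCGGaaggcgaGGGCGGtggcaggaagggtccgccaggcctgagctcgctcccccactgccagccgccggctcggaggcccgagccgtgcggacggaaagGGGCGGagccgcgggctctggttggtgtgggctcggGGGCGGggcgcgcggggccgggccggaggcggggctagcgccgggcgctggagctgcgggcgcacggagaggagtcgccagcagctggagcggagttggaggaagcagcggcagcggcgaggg

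The AKT1 window holds 7 GC boxes, that of PIK3R1 5 and that of PIK3CA 1. GC boxes were found in 7 of the 8 promoters, all but that of RPTOR, and in 44.6% of 27305 promoters of the same length. The FOXO core was found in the PIK3CA window alone among the 8, and in 3.41% of all promoters. No window of the 8 held the sterol response element, which 1.15% of all promoters held, or the E-box, which 7.43% held. RPTOR alone held the TATA letters, found in 12% of all promoters. These matches are letters in a window and were not tested as binding sites. The GC content of the windows ran from 48.0% for RPTOR to 83.3% for AKT1, beside a median of 58.3% over all promoters.

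To set the genes side by side, levels were read in deposited FPKM, which divides by gene length and library size. AKT1 stood highest, at 106 ± 4.6 FPKM in LDL and 110 ± 6.53 FPKM in control samples (SD, n = 4 each). PIK3R2 followed at 41.8 ± 2.86 FPKM in LDL and 42.7 ± 1.9 FPKM in control samples, and AKT2 at 38.5 ± 5.19 FPKM in LDL and 38.1 ± 3.89 FPKM in control samples (SD, n = 4 each). These 3 were in the upper part of the transcriptome, with AKT1 above 96.7% and AKT2 above 89.4% of features with a mean above 0. The mTOR complex genes were lower, RPTOR at a mean of 12.7 FPKM and MTOR at 10.8 FPKM over the 8 libraries. PIK3CB averaged 7.92 FPKM, PIK3R1 5.56 FPKM and PIK3CA 2.99 FPKM, so the 8 genes spanned the range from the middle of the transcriptome to its top. In this order the ranges over 8 libraries overlapped between PIK3R2 and AKT2 and between RPTOR and MTOR, and between no other neighbours.

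The order depended in part on the length used. With CPM divided by the length of each gene's principal transcript it was the same, with AKT1 at 84.2 and PIK3CA at 3.19 CPM per kb. PIK3R2 and AKT2 then no longer overlapped, at 40.2 to 45.8 and 30.1 to 34.0 CPM per kb. With the union of all annotated exons, which is long for genes with many transcripts, AKT1 came to 29.5 CPM per kb and PIK3R2 to 38.6 CPM per kb, and these 2 changed places.

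**Figure D1:**
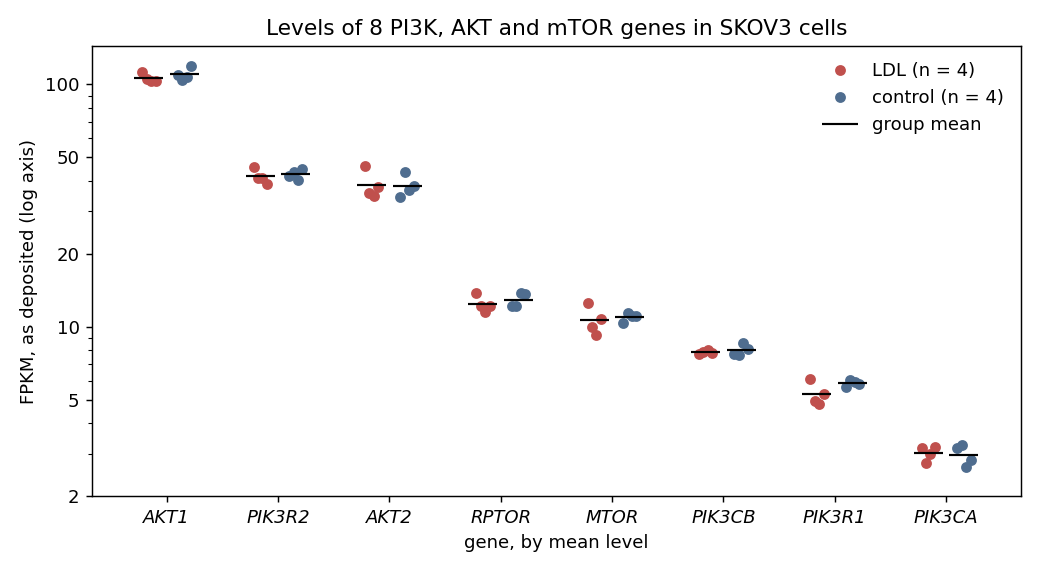
Deposited FPKM (log axis) of the 8 genes, ordered by mean level, with LDL samples left and control samples right for each gene; points are samples and lines are group means (n = 4 each). AKT1 lies above 100 FPKM in all 8 samples and PIK3CA between 2.65 and 3.25 FPKM, and the LDL and control points overlap for every gene.

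The subunits of PI3K differed in their shares of the message. Of the regulatory subunits, PIK3R2 (p85-beta) held 84.2% ± 0.713 of the summed FPKM with PIK3R1 and PIK3R3 in LDL and 83.4% ± 0.451 in control samples (SD, n = 4 each). Among the catalytic subunits the message was more evenly spread. PIK3CB held 49.1% ± 1.3 in LDL and 49.3% ± 2.38 in control samples (SD, n = 4 each). PIK3CD, the form best known from leukocytes, held 31.7% ± 1.18 in LDL and 32.0% ± 1.71 in control samples, and PIK3CA held 18.9% ± 1.11 in LDL and 18.3% ± 2.09 in control samples. PIK3CA, the subunit with the activating mutation in this line, thus had less message per length than PIK3CB or PIK3CD in deposited FPKM. It held 2.65 to 3.25 FPKM over the 8 libraries, beside 7.65 to 8.58 for PIK3CB and 4.67 to 5.51 for PIK3CD. Before division by length PIK3CA and PIK3CD were alike, at 26.0 to 31.8 and 26.6 to 30.4 CPM. Other lengths were not tried for PIK3CD, PIK3R3 or RICTOR. RPTOR, which defines mTOR complex 1, stood at 12.4 ± 0.98 FPKM in LDL and 13 ± 0.91 FPKM in control samples, and RICTOR, which defines mTOR complex 2, at 2.68 ± 0.621 FPKM in LDL and 2.59 ± 0.285 FPKM in control samples (SD, n = 4 each).

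The 8 genes were then compared between LDL and control samples. None passed an adjusted p of 0.05 in the quasi-likelihood test of edgeR over 15432 genes, where 10 genes, or 0.0648%, passed. None had an unadjusted p under 0.05 either, which 5.59% of all genes had, and in none were the groups free of overlap in CPM, which held for 3.52% of all genes. Of the 8, 7 had a log2 fold change below 0, beside 47.7% of all genes, and the median was -0.053, beside 0.006 over all genes. The 95% intervals of the 8 ran from 0.797-fold at the lowest (PIK3R1) to 1.13-fold at the highest (PIK3CA), so a change of 2-fold in either direction lay outside every interval. DESeq2, limma voom and limma on FPKM also called none of the 8.

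PIK3CA encodes p110-alpha, the catalytic subunit most often mutated in carcinomas. The gene (ENSG00000121879) lies on the plus strand of chromosome 3 (GRCh38, chr3:179148114-179240093), with 21 exons in its principal transcript. Its level was 29.5, 26.6, 29.2 and 31.0 CPM in LDL samples 1 to 4, against 30.5, 31.8, 26.0 and 27.2 CPM in control samples 1 to 4. The LDL values lay inside the range of the control values. The log2 fold change was 0.0086 (SE 0.078, 95% interval -0.16 to 0.17, edgeR adjusted p = 0.993).

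PIK3CB encodes p110-beta, which can also be activated through G protein-coupled receptors. The gene has 22 exons on the minus strand of the same chromosome (chr3:138652699-138834938). Levels were 48.3, 46.4, 49.5 and 49.4 CPM in LDL samples 1 to 4, against 47.2, 49.8, 52.8 and 50.4 CPM in control samples 1 to 4. Its coefficient of variation in CPM over all libraries, 4.03%, was the lowest of the 8 genes, with AKT1 nearly the same at 4.05%. LDL samples differed from control samples by -0.048 on the log2 scale (SE 0.0594, edgeR adjusted p = 0.95).

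PIK3R1 encodes p85-alpha, which stabilises the catalytic subunit and holds it inactive until a receptor is bound. PIK3R1 lies on the plus strand of chromosome 5 (chr5:68215720-68301821) with 16 exons. In CPM, LDL samples 1 to 4 held 43.4, 34.4, 33.2 and 37.8, against 39.7, 43.3, 43.3 and 40.2 in control samples 1 to 4. LDL samples 2, 3 and 4 lay below every control sample, and LDL sample 1 lay only just above the highest of them. Means were 37.2 ± 4.59 CPM in LDL and 41.6 ± 1.95 CPM in control samples (SD, n = 4 each), a log2 fold change of -0.16 (SE 0.0786, 95% interval -0.33 to 0.004, edgeR unadjusted p = 0.0557 and adjusted p = 0.879). An exact two-sided permutation test of PIK3R1 alone gave p = 0.171.

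The value for PIK3R1 depended on which LDL samples were kept. Without LDL sample 2, 3 or 4 alone the log2 fold change was -0.13, -0.11 and -0.17 (edgeR adjusted p from 0.955 to 0.998). Without LDL sample 1 it was -0.24 (95% interval -0.39 to -0.098, edgeR adjusted p = 0.0966), in a fit that called 0.954% of all genes. Without LDL samples 1 and 4 it was -0.30 with an edgeR adjusted p of 0.0364, 1 of 248 genes called in that fit (1.56% of all genes), and PIK3R1 was the 1 of the 8 past the threshold. Those libraries were left out because earlier results of these data had set them apart, so this call is not independent of them. In bulk RNA, less message in every cell and fewer cells with the message cannot be told apart.

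PIK3R2 encodes p85-beta, the second widely expressed regulatory subunit. PIK3R2 lies on the plus strand of chromosome 19 (chr19:18153118-18170540) with 16 exons. Its level was 184.7, 171.2, 172.8 and 162.1 CPM in LDL samples 1 to 4, against 173.5, 182.1, 168.2 and 181.1 CPM in control samples 1 to 4. The groups overlapped throughout, and the log2 difference was -0.029 (SE 0.0504, edgeR adjusted p = 0.96). The annotation also holds a read-through on the same strand, AC007192.1, which shares 97.9% of the 75-base stretches of the principal PIK3R2 transcript. Its counts were 231, 0, 85 and 50 in LDL samples 1 to 4 and 48, 0, 418 and 484 in control samples 1 to 4, so the split between both genes varied from library to library. With both added, a sum chosen after the overlap was seen, the log2 fold change was -0.054 (edgeR adjusted p = 0.932). Of the other members, PIK3CA shared 1.26% of its stretches with 1 other gene and the remaining 6 shared none.

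AKT1 encodes the most widely expressed of the AKT kinases, which promotes survival and growth. AKT1 lies on the minus strand of chromosome 14 (chr14:104769349-104795751) with 13 exons. LDL samples 1 to 4 held 333.4, 319.4, 312.0 and 323.6 CPM, against 328.2, 325.3, 340.4 and 354.9 CPM in control samples 1 to 4. LDL samples 2, 3 and 4 lay below every control sample and LDL sample 1 among them. Means were 322.1 ± 8.95 CPM in LDL and 337.2 ± 13.5 CPM in control samples (SD, n = 4 each), with a log2 fold change of -0.067 (SE 0.0461, 95% interval -0.16 to 0.03, edgeR adjusted p = 0.884) and p = 0.114 in an exact two-sided permutation test of AKT1 alone.

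AKT2 encodes the form tied most closely to insulin-stimulated glucose uptake, and its gene is amplified in some ovarian carcinomas. AKT2 lies on the minus strand of chromosome 19 (chr19:40230317-40285536) with 14 exons and 42 annotated transcripts. LDL samples 1 to 4 held 180.0, 167.2, 164.5 and 159.6 CPM, against 160.3, 177.8, 173.2 and 173.0 CPM in control samples 1 to 4. The highest value was in LDL sample 1 and the lowest in LDL sample 4, only just below control sample 1. In counts the log2 difference was -0.028 (SE 0.0512, edgeR adjusted p = 0.961), and on FPKM it had the opposite sign, at 0.013.

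For AKT2 counts and FPKM were not proportional. The length implied by a gene's count and FPKM should be the same in every library if 1 fixed length were used. For AKT2 it was 3909, 4711, 4733 and 4227 bases in LDL samples 1 to 4, against 4684, 4095, 4722 and 4562 bases in control samples 1 to 4. LDL sample 1 and control sample 2 had the shortest implied lengths and also the highest FPKM, 46.1 and 43.4. The spread from lowest to highest was 21.1% for AKT2, between 4.15% and 10.5% for the other 7 genes, and 4.78% at the median of 11820 features with at least 100 counts in every library. Part of the spread in AKT2 FPKM is thus not in its counts, and the mix of AKT2 transcripts was not measured by these gene tables.

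MTOR encodes the kinase at the core of both mTOR complexes. MTOR lies on the minus strand of chromosome 1 (chr1:11106535-11262507) with 58 exons. MTOR stood at 110.5, 88.4, 85.0 and 93.2 CPM in LDL samples 1 to 4, against 93.6, 99.7, 101.2 and 99.7 CPM in control samples 1 to 4. As for PIK3R1, LDL samples 2, 3 and 4 lay below every control sample and LDL sample 1 above every one. The log2 fold change was -0.065 (SE 0.0695, 95% interval -0.21 to 0.08, edgeR adjusted p = 0.939). Without LDL sample 1 it was -0.15 (edgeR adjusted p = 0.187), and without LDL samples 1 and 4 it was -0.18 (edgeR adjusted p = 0.104). Without LDL sample 2, 3 or 4 alone it was smaller, at -0.0418, -0.0193 and -0.0575 (edgeR adjusted p from 0.982 to 0.998).

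RPTOR encodes raptor, the scaffold of mTOR complex 1. It lies on the plus strand of chromosome 17 (chr17:80544819-80966371) with 34 exons over 421553 bases. LDL samples 1 to 4 held 96.9, 84.9, 82.4 and 87.7 CPM, against 86.9, 87.8, 96.7 and 94.7 CPM in control samples 1 to 4. LDL sample 1 was again the highest, only just above control sample 3, and LDL sample 3 was the lowest. Its log2 difference, LDL minus control, was -0.058 (SE 0.0608, edgeR adjusted p = 0.937). Without LDL sample 2, 3 or 4 alone it was smaller, at -0.0479, -0.0289 and -0.0549 (edgeR adjusted p from 0.98 to 0.998). Without LDL sample 1 it was -0.10 (edgeR adjusted p = 0.408). Without LDL samples 1 and 4 it was -0.13 (95% interval -0.25 to -0.004, edgeR unadjusted p = 0.0435 and adjusted p = 0.342), in a fit where 13.9% of all genes had an unadjusted p under 0.05.

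**Figure D2:**
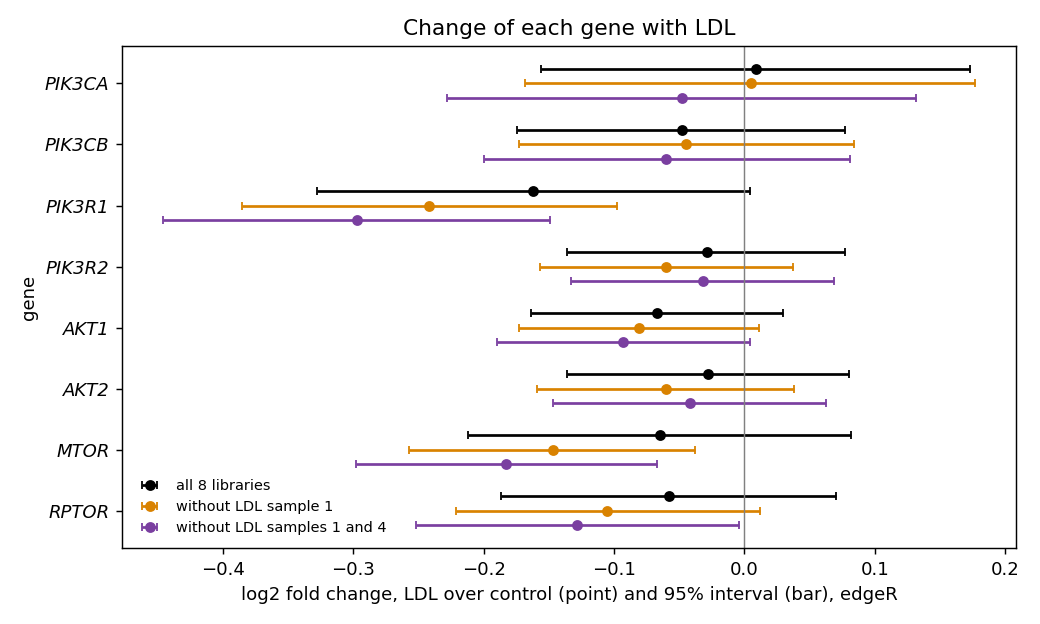
Log2 fold change of LDL over control for the 8 genes with 95% intervals from edgeR, over all 8 libraries, without LDL sample 1 and without LDL samples 1 and 4. Over all libraries every interval includes 0; without LDL sample 1 those of PIK3R1 (-0.24) and MTOR (-0.15) do not, and neither passes the adjusted threshold in that fit. Without LDL samples 1 and 4 those of PIK3R1 (-0.30), MTOR (-0.18) and RPTOR (-0.13) lie below 0, and PIK3R1 passes the adjusted threshold. Of all genes, 14.5% had an unadjusted edgeR p under 0.05 without LDL sample 1, and 13.9% without LDL samples 1 and 4. Fits without other samples are not shown.

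Several of the genes shared a pattern across the libraries. In CPM, LDL sample 1 was the highest of the 8 libraries for PIK3R1, PIK3R2, AKT2, MTOR and RPTOR. These are 5 of the 8 genes, while it was the highest for 17.6% of all genes tested. For PIK3R1 and RPTOR its lead was small, at 43.42 against 43.32 CPM and 96.85 against 96.7 CPM in the next library. With CPM also scaled by the normalization factors, control sample 3 stood above it in both. The log2 values were then 0.146 against 0.138 for PIK3R1 and 0.115 against 0.104 for RPTOR. LDL sample 3 was the lowest for PIK3R1, AKT1, MTOR and RPTOR, 4 of the 8, and the lowest for 10.8% of all genes. The mean of the 8 genes relative to their own means was 0.073 in LDL sample 1, -0.075, -0.079 and -0.035 in LDL samples 2 to 4, and -0.02, 0.043, 0.043 and 0.049 in control samples 1 to 4, on the log2 scale. LDL sample 1 thus stood on the side of the controls, and above each of them. PIK3CA, PIK3CB and AKT1 did not stand high in it, and lay at 0.019, -0.033 and 0.009 in LDL sample 1.

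**Figure D3:**
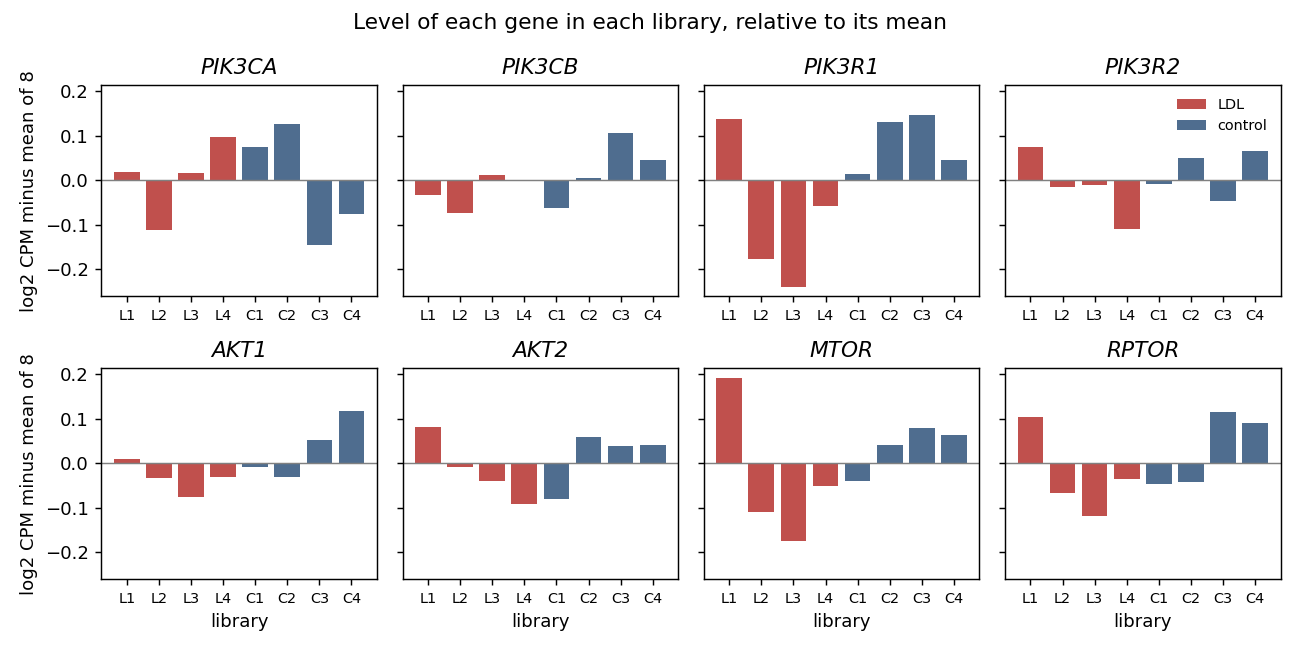
Level of each gene in each library as log2 CPM minus the mean over 8 libraries, LDL samples (L1 to L4) left of control samples (C1 to C4). CPM are here also scaled by the normalization factors. In PIK3R1, MTOR and RPTOR LDL sample 1 stands at 0.138, 0.193 and 0.104 while LDL samples 2 to 4 stand below 0.

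By the same measure, the gene with at least 1 CPM whose profile over the 8 libraries lay closest to each member was found among 13637 tested genes. For AKT1 it was FAAP100, with a root mean square difference of 0.0167 on the log2 scale, and for AKT2 it was PYGO2, at 0.0168. The closest to MTOR was ITPR3 (0.0242) and to RPTOR it was MFN2 (0.0198). PRR14L lay closest to PIK3CA (0.0243), ZC3H18 to PIK3CB (0.0242) and BRD3OS to PIK3R2 (0.025). PIK3R1 had the least close neighbour, DCAF1, at 0.0423. None of these 8 neighbours passed the threshold for LDL against control samples in edgeR (adjusted p from 0.884 to 0.993), and members that vary little have many close neighbours.

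Ratios within a library do not depend on its scaling, so the balance of partners was compared over the 8 libraries with exact two-sided permutation tests, which cannot go below 0.0286 for 4 against 4 samples, adjusted over 5 ratios. PIK3R2 over PIK3R1, the 2 regulatory subunits, was 7.54, 8.33, 8.63 and 7.41 in LDL samples 1 to 4, against 7.47, 7.17, 6.81 and 7.75 in control samples 1 to 4. LDL samples 2 and 3 lay above every control sample, and the other 2 among them. The means on the log2 scale differed by 0.13 (exact permutation p = 0.143, adjusted p = 0.714). PIK3CB over PIK3CA averaged 2.6 in LDL and 2.7 in control samples (log2 difference -0.056, adjusted p = 0.893 by the exact permutation test). The ratio of AKT2 over AKT1 averaged 0.361 in LDL and 0.345 in control samples (log2 difference 0.066, adjusted p = 0.893 by the exact permutation test). It ran from 0.313 to 0.418 over single libraries, and its 2 highest values were in LDL sample 1 and control sample 2, the libraries with the short implied AKT2 lengths. The log2 difference was 0.0071 without LDL sample 1, 0.16 without control sample 2 and -0.033 without LDL samples 1 and 4. RPTOR over MTOR was 1.18 in LDL and 1.18 in control samples, and lay between 1.06 and 1.24 in every library (adjusted p = 0.971 by the exact permutation test). For regulatory over catalytic subunits, PIK3R1 and PIK3R2 were summed over the sum of PIK3CA and PIK3CB, without PIK3R3, PIK3CD and PIK3CG. This ratio was 4.32 in LDL and 4.42 in control samples (adjusted p = 0.893 by the exact permutation test). No ratio passed the threshold, and in all 5 the groups overlapped.

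**Figure D4:**
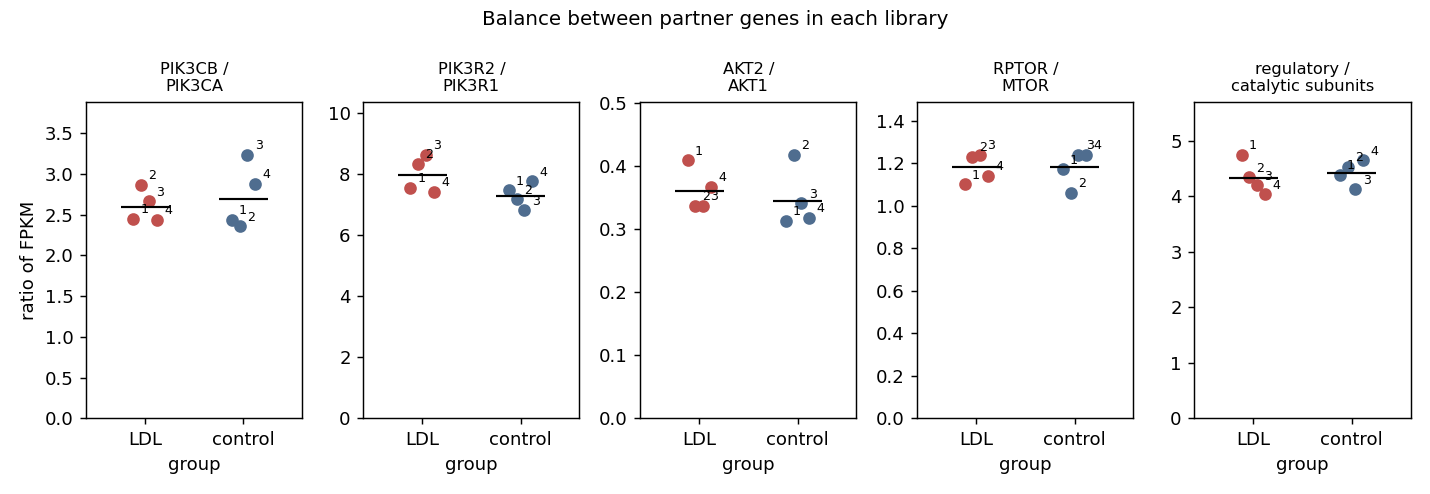
Ratio of FPKM between partner genes in each library, with LDL samples left and control samples right of each panel, sample numbers beside the points and lines at the geometric group means (n = 4 each). LDL samples 2 and 3 have the highest PIK3R2 over PIK3R1, at 8.33 and 8.63, and the groups overlap in all 5 panels. Regulatory subunits are here PIK3R1 and PIK3R2, and catalytic subunits PIK3CA and PIK3CB.

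The rest of the pathway was read from 11 lists by role, with 107 genes beside the 8. Of these, 101 were tested, and the other 6, among them PIK3R5, PIK3R6 and PIK3C2G, were too low. None passed over all genes in edgeR, and 8, or 7.92%, had an unadjusted p under 0.05, beside 5.59% of all genes. Their median log2 fold change was -0.008, with 47 above and 54 below 0. In 5 of the 101 the groups did not overlap, 4.95%, beside 3.52% of all genes.

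Upstream of PI3K, none of 5 tested receptor adaptors passed (median -0.02). The smallest p was that of GAB2, a docking protein for receptor kinases, at a log2 fold change of 0.22 (edgeR adjusted p = 0.879). IRS1 and IRS2, which couple insulin and IGF receptors to PI3K, were at -0.02 and 0.023. IRS1 was highest in LDL samples 1 and 4, at 31.2 and 31.5 CPM, and without both it was at -0.25 (edgeR unadjusted p = 0.00989 and adjusted p = 0.174). That fit left out its highest libraries, and 13.9% of all genes had an unadjusted p under 0.05 in it. IRS1 was at -0.088 without LDL sample 1 alone and at -0.094 without LDL sample 4 alone (edgeR unadjusted p = 0.413 and 0.372). Among the other class I subunits none of 3 passed (median -0.045). PIK3CD was at -0.045, PIK3R3 at -0.042, and PIK3CG, with the smallest p, was below 1 CPM in every library. In class II and III, enzymes of membrane traffic, none of 4 passed (median -0.032). PIK3C2B had the smallest p, at -0.22 (edgeR adjusted p = 0.879).

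The brakes of the pathway did not pass either, with none of 4 lipid phosphatases and inhibitors called (median -0.056). INPP4B, a phosphatase that acts on a later lipid product, held 10.4, 9.8, 9.61 and 10.5 CPM in LDL samples 1 to 4, against 8.01, 7.8, 9.52 and 7.87 CPM in control samples 1 to 4. Its groups did not overlap, with LDL sample 3 only just above control sample 3, and the log2 fold change was 0.28 (SE 0.111, edgeR unadjusted p = 0.0228 and adjusted p = 0.849). PIK3IP1, a membrane protein that restrains the catalytic subunit, held 2.15, 1.38, 1.35 and 1.24 CPM in LDL samples, against 2.31, 2.07, 2.08 and 2.32 CPM in control samples. LDL samples 2 to 4 lay below all controls and LDL sample 1 among them (log2 fold change -0.52, SE 0.235, edgeR adjusted p = 0.878).

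Around AKT, none of 5 AKT regulators passed (median -0.055). TRIB3, a pseudokinase that binds AKT and is raised by amino acid stress, had the smallest p, at 0.23 (edgeR adjusted p = 0.83). PDPK1, the kinase that activates AKT, was at -0.10. Of 10 AKT substrates none passed (median -0.007), with BAD, a death-promoting protein that AKT restrains, at 0.12 (edgeR adjusted p = 0.879). Of 17 targets of the FOXO factors, which AKT keeps out of the nucleus, none passed, and 8 lay above and 9 below 0 (median -0.017). The smallest p among them was that of PIK3IP1, given above.

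Around mTOR, none of 9 other complex subunits passed (median 0.014), with PRR5, a subunit of mTOR complex 2, at 0.14 (edgeR adjusted p = 0.879). RICTOR varied more than any of the 8 members, from 14.1 to 31.7 CPM, both in LDL samples. Of 5 genes of the TSC complex and RHEB, its target GTPase, none passed (median -0.08). TBC1D7 had the smallest p, at 0.19 (edgeR adjusted p = 0.861), and TSC1 and TSC2, which restrain mTOR complex 1, were at -0.14 and -0.08. Of 29 genes of amino acid sensing none passed, and 17 lay above 0 (median 0.034). NPRL3, of the complex that silences mTOR complex 1 in amino acid shortage, held 138.1 to 141.1 CPM in LDL samples and 118.6 to 131.8 CPM in control samples without overlap (log2 fold change 0.15, SE 0.0492, edgeR adjusted p = 0.732). Of 14 effectors of mTOR complex 1 none passed (median -0.001). LPIN1, a lipin that mTOR complex 1 phosphorylates, held 28.5, 24.7, 25.7 and 27.5 CPM in LDL samples, against 22.7, 23.4, 23.4 and 22.0 CPM in control samples. All 4 LDL samples lay above all controls, and the log2 fold change was 0.22 (SE 0.0721, edgeR unadjusted p = 0.00787 and adjusted p = 0.706).

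**Figure D5:**
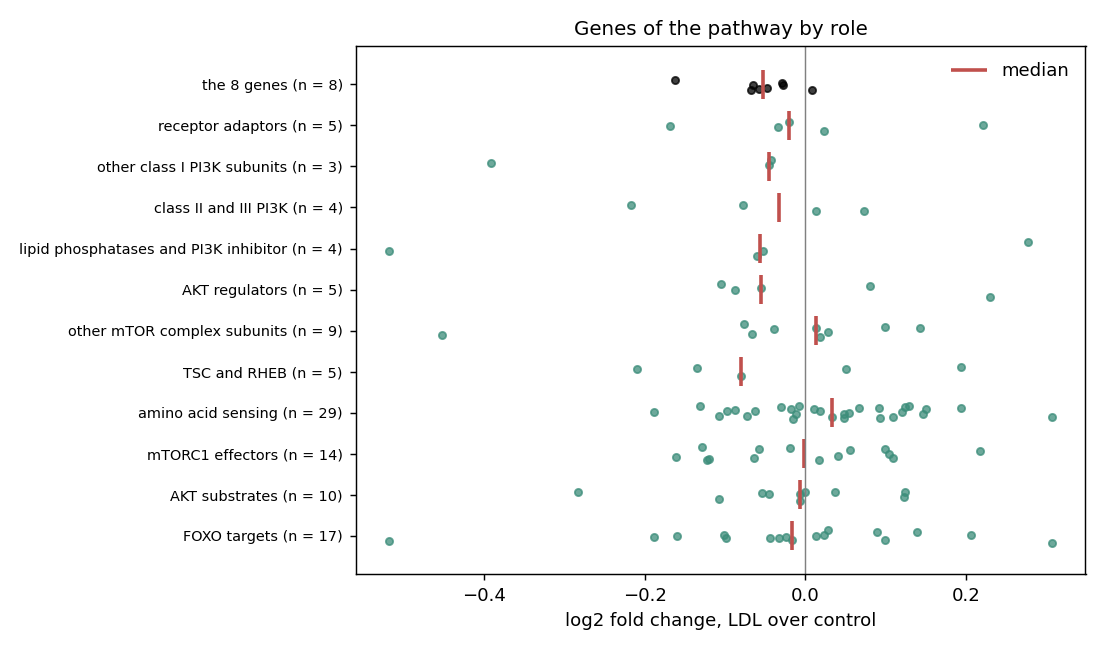
Log2 fold change of LDL over control for the 8 genes and for the tested genes of 11 pathway lists; points are genes and bars are list medians. No gene shown passed the threshold over all genes, and the list medians lie between -0.08 and 0.034.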

How the data were processed

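Per the labels' protocols, stranded poly(A) libraries (Illumina TruSeq) were made from total RNA. The GRCh38 build, HISAT2, DESeq2 (1.26.0) and featureCounts are listed in the submitters' processing notes without roles, and no source used here gives the annotation or counting settings. Values in the deposited count table were handled as estimated counts: they are whole, 55.2% of values from 1 to 20 were even, and 2557 features carry assembly names (MSTRG). The second deposited table gives FPKM, fragments scaled to length and depth.

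Genes were tested in R 4.3.3 by the quasi-likelihood method of edgeR 4.0.16 (TMM, filterByExpr, robust, group as the only term; Benjamini-Hochberg over 15432 genes). CPM are counts scaled to the library total. Alternatives used DESeq2 1.42.0, limma 3.58.1, other scalings and filters, thinning to equal totals, FPKM and left-out samples. Normalization factors lay between 0.9925 and 1.008. On simulated counts the test recovered 32% of changes of 1.25-fold, 64% of 1.5-fold, 74% of 2-fold and 95.3% of 4-fold. In each of 3 simulated data sets 200 of the tested genes, drawn at any level, were changed. That is more than the 10 called in the data, which eases the adjusted threshold, so these rates need not hold for the members. Smaller changes were not simulated, so a gene short of the threshold can still differ by a small amount. Chi-square per degree of freedom between libraries of 1 group was 6.67 to 27.5, so none was counted as a repeat. Coordinates came from GENCODE release 29 (GRCh38).

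Members and lists were chosen with earlier results of these data known. Named genes are the 8 members, the member of each list with the smallest p, any called, and the gene closest to each member; IRS1, IRS2, PIK3CD, PIK3R3, PDPK1, TSC1, TSC2, RICTOR, EIF4EBP2 and GADD45A were added as examples after their values were seen. A few results on related genes are not reported here.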

Additional observations from a re-analysis of the deposited data

How the results depend on the processing

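PIK3CB, AKT1, MTOR and RPTOR kept their direction and stayed short of the threshold in all 20 alternatives, and PIK3R1 in all but the fit without LDL samples 1 and 4, where 1 of the 8 genes was called. With each sample left out in turn 0 were called. The unadjusted edgeR p of PIK3R1 was 0.042 with upper-quartile factors, 0.0382 without a count filter and 0.0463 without control sample 1. It was 0.0493 with a filter of at least 1 CPM in 4 samples and 0.0458 after thinning. In these fits 4.81% to 6.02% of all genes had an unadjusted p under 0.05. PIK3CA changed sign with upper-quartile factors (-0.000198) and without LDL samples 1 and 4 (-0.0482), and ran from -0.0366 to 0.0535 with single samples left out. AKT2 changed sign in the FPKM fits (0.0131, 0.0134 and 0.0131), and PIK3R2 ran from -0.0601 to 0.00167 with single samples left out. Genes called over the whole table numbered 10, against 47 with DESeq2, 248 without LDL samples 1 and 4, 5 with a pseudocount of 0.1 FPKM, 2 with 1 FPKM and no minimum, and 2 to 149 with single samples left out, the most without LDL sample 1. The cause was not tested.

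With the replicate number as a block, 2 genes and none of the 8 were called. Same-numbered samples did not deviate together (correlations -0.101, 0.06, 0.032 and -0.004). With 4 samples in each group, this cannot show whether they were handled as pairs. The ratios, none past the threshold in any setting, changed sign as follows: RPTOR over MTOR with a pseudocount of 1 FPKM (-0.000687) and between -0.0479 and 0.0313 with single samples left out; PIK3CB over PIK3CA without LDL samples 1 and 4 (0.0348) and between -0.122 and 0.0307; AKT2 over AKT1 without LDL samples 1 and 4 (-0.0329); and regulatory over catalytic subunits between -0.0778 and 0.000721. Depth did not limit the members, whose lowest count was 921.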

Other observations

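Beyond the 8 genes, few pathway genes passed the adjusted threshold when LDL samples were left out, a share close to that of all genes. Without LDL sample 1 it was 1 of 101, or 0.99%, beside 0.954% of all genes, and without LDL samples 1 and 4 it was 2 of 101, or 1.98%, beside 1.56%. The share with an unadjusted edgeR p under 0.05 was higher than that of all genes. Without LDL sample 1 it was 26 of 101, or 25.7%, beside 14.5%. Without LDL samples 1 and 4 it was 18 of 101, or 17.8%, beside 13.9%. The cause was not tested. Leaving out these samples was not independent of earlier results. EIF4EBP2, which encodes a repressor of translation that mTOR complex 1 inactivates, held 139.8, 110.1, 111.8 and 109.5 CPM in LDL samples 1 to 4, against 124.6, 131.3, 130.5 and 126.3 CPM in control samples 1 to 4. LDL sample 1 was the highest of all 8 libraries and the other LDL samples the lowest. In CPM this was also so for PIK3R1 and MTOR. Its log2 fold change was -0.12 over all libraries (edgeR adjusted p = 0.884), -0.21 without LDL sample 1 (edgeR adjusted p = 0.0347) and -0.21 without LDL samples 1 and 4 (edgeR adjusted p = 0.0447).

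GADD45A, a growth arrest gene among the FOXO targets, held 74.5, 107.9, 100.6 and 77.8 CPM in LDL samples 1 to 4, against 92.0, 78.0, 89.7 and 79.7 CPM in control samples 1 to 4. LDL samples 2 and 3 were the highest of the 8 and LDL samples 1 and 4 the lowest. Its log2 fold change was 0.089 over all libraries (edgeR adjusted p = 0.954) and 0.30 without LDL samples 1 and 4 (edgeR adjusted p = 0.0272). That fit left out its lowest libraries. Without LDL sample 1 alone the log2 fold change was 0.173 (edgeR adjusted p = 0.597), and without LDL sample 4 alone 0.155 (edgeR adjusted p = 0.98).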
